A study of Mus musculus with 6 samples.

Results

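The fibroblast growth factor (FGF) genes described here are 10 genes taken by symbol, namely the carrier proteins Fgfbp1 and Fgfbp3, the ligands Fgf1, Fgf2 and Fgf9, and the receptors Fgfr1, Fgfr2, Fgfr3, Fgfr4 and Fgfrl1. They are 10 of the 35850 genes in the deposited table, and the rule that takes them uses gene symbols only. The tissue was the optic nerve of mice aged 6 weeks in a mouse model of the optic pathway glioma that arises in neurofibromatosis type 1, and the question was how an obesogenic diet alters gene expression there. Poly(A) RNA was measured in 3 libraries per diet. The obesogenic group had the AIN-76A formula with sucrose and 58% of energy from fat, and the control group had PicoLab 5053; the series title calls the exposure maternal. Mice of both groups carried GFAP-Cre, a floxed Nf1 allele and an Nf1 allele with the R681X mutation. Nf1 loss through recombination is therefore limited to cells in which the GFAP promoter has been active, which are mainly glia and their precursors, and no library from mice with intact Nf1 was analysed here. Each library's label carries its own code, but the labels do not state that the codes stand for separate animals or litters. The p-values below then measure the spread between these libraries, which may be technical.

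FGFs are secreted ligands that dimerise receptor tyrosine kinases on the cell surface, with heparan sulfate as a cofactor, and the activated receptor signals through the adaptor FRS2 to RAS and the MAPK cascade. Neurofibromin, the product of Nf1, switches RAS off, so FGF receptors act upstream of the step that this mouse model alters. FGF-binding proteins are secreted carriers that take FGFs from the heparan sulfate of the extracellular matrix and bring them to their receptors. In the optic nerve, FGF receptors are known from astrocytes, oligodendrocytes and their precursors, and from the cells of the meninges and vessels.

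Values are TPM, a unit that corrects for transcript length and total, so levels of different genes can be set side by side. The table lists transcripts, and gene values are sums over the transcripts listed. Sequencing depth is unknown in this unit, and a library's listed transcripts added up to 788456 to 832193 TPM. The nerve's defining glial markers were present: the oligodendrocyte gene Mbp ranged from 15014 to 31354 TPM in obesogenic libraries and from 38441 to 41162 TPM in control libraries, and the astrocyte gene Gfap from 1512 to 2787 TPM in obesogenic and from 2459.8 to 5157 TPM in control libraries. The libraries also differed in transcripts of other cell types. Neuron markers summed to 778, 309 and 1797 TPM in obesogenic libraries 1, 2 and 3, against 236, 177 and 309 TPM in control libraries 1, 2 and 3, and 16 of the 17 tested had a higher obesogenic mean (median log2 difference 1.85). The shift was wider for 13 hypothalamic neuropeptide genes, which summed to 8139, 1364 and 7337 TPM in obesogenic libraries 1, 2 and 3, against 819.7, 423 and 2221 TPM in control libraries 1, 2 and 3. All 11 of them that were tested had a higher obesogenic mean, with a median log2 difference of 3.07. For 7 of the 11, all obesogenic libraries lay above all control libraries, against 8.88% of all genes tested. Pomc, the precursor of melanocortin peptides, measured 332, 35.9 and 547 TPM in obesogenic and 6.63, 2.57 and 4.22 TPM in control libraries, whereas Agrp and Crh stayed below 1 TPM in every library. Microglial and macrophage markers summed to 842, 3614 and 768 TPM in obesogenic and 1247, 1206 and 850.4 TPM in control libraries. Obesogenic library 2, the highest of these, also had 20.6% of its listed TPM in immunoglobulin genes, against at most 0.0444% in the other libraries. TPM is scaled to a fixed total, so this share lowers the TPM of the other genes in that library. In bulk tissue, fewer cells of a type and less RNA per cell cannot be told apart.

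Among the 10 genes, Fgfr1, Fgfr2 and Fgfr3 were the most abundant in the obesogenic nerve, with means of 85.2, 122 and 86.5 TPM, and their ranges over the obesogenic libraries overlapped. Fgf1, Fgfbp1, Fgfbp3, Fgf2 and Fgfrl1 followed at means of 15.9, 15.8, 13.6, 10.04 and 9.99 TPM, and each overlapped its neighbour in this order. Fgfr4 and Fgf9 came last at 1.33 and 1.28 TPM, the latter summed without Fgf9-201. Their ranges overlapped each other but not those of the other genes. In the control nerve the order of means was Fgfr2 (164 TPM), Fgfr1 (158), Fgfbp1 (77.5), Fgfr3 (43.4), Fgf1 (21.2), Fgfbp3 (15.6), Fgfrl1 (13.7), Fgf2 (12.7), Fgfr4 (1.94) and Fgf9 (0.491). Neighbours in that order overlapped except Fgfr1 and Fgfbp1, Fgfbp1 and Fgfr3, and Fgf2 and Fgfr4. Fgfbp1, at 67.7 to 84.1 TPM, lay above Fgfr3, at 25.1 to 57.5 TPM, and below Fgfr1, at 152 to 169.9 TPM. In obesogenic libraries Fgfbp1 lay at 13.2 to 19.0 TPM, below Fgfr3 at 26.3 to 118 TPM. The plot of gene levels by library shows these positions.

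**Figure D1:**
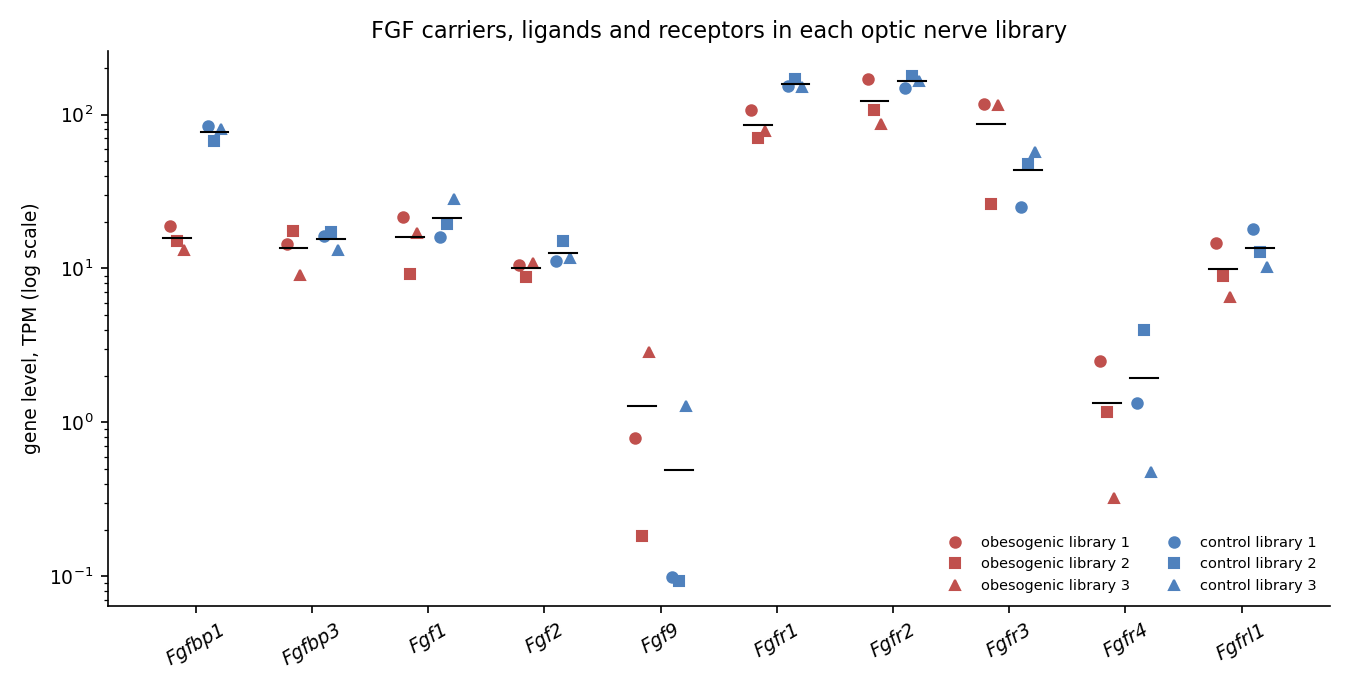
Level of each of the 10 FGF genes in each library, in TPM on a log scale; obesogenic libraries are red and stand left of the blue control libraries, marker shapes give the library number and bars the group means. Fgfbp1 is at 13.2 to 19.0 TPM in obesogenic libraries, all below the control libraries at 67.7 to 84.1 TPM, and Fgfr3 is high in obesogenic libraries 1 and 3 only.

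No FGF gene passed the threshold, which does not show that these genes were unchanged. In simulated data the fit called 2.99% of genes changed by 1 log2 unit. Of the 10, 9 reached at least 1 TPM in at least 3 libraries and were tested with limma, and Fgf9 did not. At an adjusted p under 0.05 over the 14364 genes tested, 0 of the 9 were called, and the background was 0.00696% of all genes, which is 1 gene. At an unadjusted p under 0.05 there were 2 of the 9, Fgfbp1 and Fgfr1, against 11.0% of all genes. In 8 of the 9 the mean log2 value was lower in obesogenic libraries, and Fgfr3 was the exception. For Fgfbp1, Fgf2 and Fgfr1, 3 of the 9, all obesogenic libraries lay below all control libraries, against 7.45% of all genes tested. For 0 of the 9 did all obesogenic libraries lie above, against 8.88% of all genes. Under each of the 3 other scalings between libraries, the 9 genes had the same signs. Rescaling without immunoglobulin genes, which is among these 3, moved the median of all genes from 0.08 to 0.17. It moved Fgf1 from -0.43 to -0.33, Fgfr2 from -0.48 to -0.38 and Fgfr3 from 0.78 to 0.88. The plot of diet differences gives each estimate with its standard error.

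**Figure D2:**
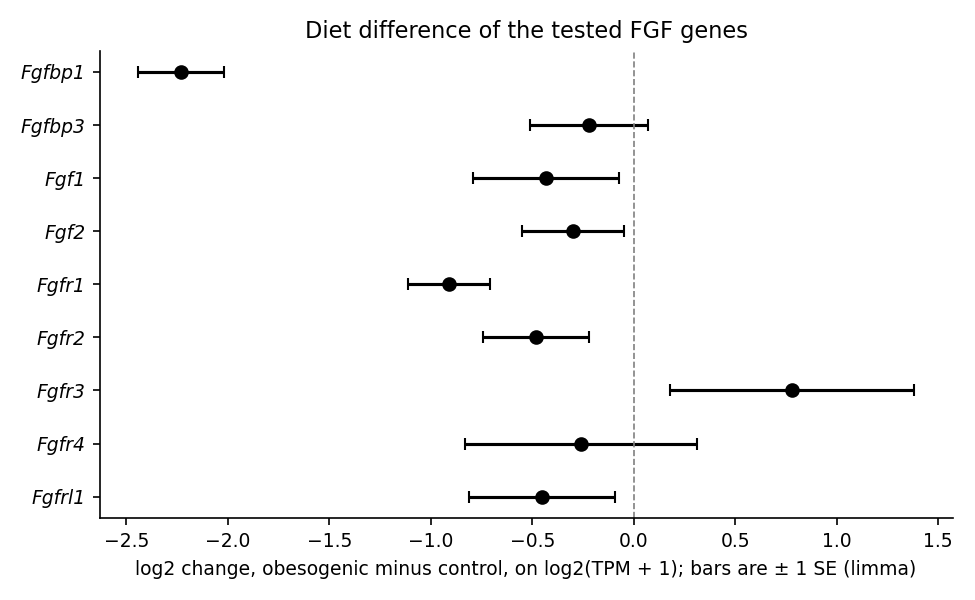
Difference between diets of the 9 tested FGF genes, obesogenic minus control, in log2(TPM + 1); points are limma estimates and bars are 1 standard error on either side. Fgfbp1 at -2.23 and Fgfr1 at -0.91 lie farthest below 0, and Fgfr3 at 0.78 is the gene above 0.

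Of the carriers, Fgfbp1 (ENSMUSG00000048373) showed the widest separation between diets of all 10 genes. It measured 19.0, 15.2 and 13.2 TPM in obesogenic libraries 1, 2 and 3, against 84.1, 67.7 and 80.6 TPM in control libraries 1, 2 and 3. The highest obesogenic library was far below the lowest control library, and each group was tight around its mean. The means were 15.8 ± 2.91 TPM with the obesogenic diet and 77.5 ± 8.66 TPM with the control diet (SD, n = 3 each), so the control mean was 4.90 times the obesogenic mean. On the log2(TPM + 1) scale the difference was -2.23 (SE 0.21), with a limma adjusted p of 0.0755, which missed the threshold. Fgfbp1 had the 2nd smallest unadjusted p of the 14364 genes tested (1.05e-05) and the 19th lowest log2 difference. The call depended on the fit. The limma adjusted p was 0.0167 without obesogenic library 2 (log2 difference -2.21, with 860 genes called). With array weights it was 0.00314 (-2.01, with 2064 genes called). It rose to 0.219 without obesogenic library 1 and 0.179 without obesogenic library 3. Without control libraries 1, 2 and 3 in turn it was 0.629, 0.309 and 0.237, and with eBayes without trend 0.177. When obesogenic libraries 1 and 3 were both left out, the log2 difference was -2.27.

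Most of the Fgfbp1 signal lay in 1 transcript. Fgfbp1-201 measured 16.7, 14.6 and 11.9 TPM in obesogenic libraries 1, 2 and 3, and 80.1, 63.6 and 71.2 TPM in control libraries 1, 2 and 3. Its log2 difference was -2.24 (SE 0.22, limma adjusted p over all transcripts = 0.0849). Fgfbp1-203, which begins close by and has an additional exon, measured 1.98, 0 and 1.12 TPM in obesogenic libraries, against 3.03, 3.18 and 7.69 TPM in control libraries. Fgfbp1-202 stayed below 2 TPM in every library and was not tested. The 3 transcripts have the same coding length, 753 bases. The stretch around their starts is printed because Fgfbp1-201 and Fgfbp1-203 begin in it. It runs from 250 bases before to 50 bases from the RefSeq start of the gene at chr5:43981750-43982049 on the minus strand (RefSeq, GRCm38.p6), is written 5′ to 3′, and has a TATAAA in capitals.
Fgfbp1 start region: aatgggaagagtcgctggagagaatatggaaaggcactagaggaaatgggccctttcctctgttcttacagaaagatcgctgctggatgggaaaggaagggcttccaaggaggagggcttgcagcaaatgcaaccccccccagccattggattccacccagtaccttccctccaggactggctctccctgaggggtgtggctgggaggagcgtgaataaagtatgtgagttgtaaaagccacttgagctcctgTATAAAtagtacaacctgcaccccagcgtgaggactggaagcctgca
The TATAAA begins at base 4 counted from the RefSeq start, and so lies downstream of it, but 32 bases upstream of the GENCODE start of Fgfbp1-201, 17 bases upstream of that of Fgfbp1-203 and 743 bases upstream of that of Fgfbp1-202. Searched on both strands, TATAAA was in 13.6% of the 32851 RefSeq start windows of the same length, and in 2 of the 9 windows found for 8 of these genes, those of Fgfbp1 and Fgfbp3. The GC box GGGCGG was in 35.7% of all windows and in 5 of the 9, but not in that of Fgfbp1. Letters of the AP-1 motif TGANTCA (7.81% of all windows), the cyclic AMP element TGACGTCA (1.79%) and the TCF/LEF motif CTTTGAT (3.73%) were in none of the 9, and the MYC-type E-box CACGTG (7.15%) was in those of Fgfrl1 and Fgfr2.

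The other carrier, Fgfbp3, encodes a related secreted protein and did not separate the diets. It measured 14.4, 17.4 and 9.08 TPM in obesogenic libraries 1, 2 and 3, against 16.3, 17.3 and 13.2 TPM in control libraries 1, 2 and 3. The groups overlapped, and the log2 difference was -0.22 (SE 0.29, limma adjusted p = 0.837). Without obesogenic library 3 the difference was 0.03. All of its signal was listed on Fgfbp3-202 in 5 libraries and on Fgfbp3-201 in control library 3, so its transcripts are given here as their sum. The ratio of Fgfbp1 to Fgfbp3 in a library, which does not move with the scaling between libraries, was 1.32, 0.87 and 1.46 with the obesogenic diet and 5.17, 3.90 and 6.11 with the control diet. All obesogenic ratios lay below all control ratios, and in obesogenic library 2 Fgfbp1 was the lower of the pair.

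Transcripts of the nerve sheath and the vessels were also lower with the obesogenic diet. The 20 tested markers of meningeal fibroblasts and arachnoid had a median log2 difference of -1.33, against 0.08 over all genes tested, and 19 of them had a lower obesogenic mean. Their summed level was 13359.9 to 17480.0 TPM in obesogenic and 44027 to 54398 TPM in control libraries, most of it from Ptgds. None of these markers was listed at 0 in a whole group, and Aldh1a2, an enzyme of retinoic acid synthesis, measured 109, 93.9 and 92.3 TPM in obesogenic against 291, 325 and 251 TPM in control libraries. The 17 tested endothelial markers had a median of -0.86 with 15 lower, and summed to 471 to 584 TPM in obesogenic and 776 to 1329.9 TPM in control libraries. The 11 tested pericyte and smooth muscle markers had a median of -1.10 with all 11 lower, and summed to 444 to 463 TPM in obesogenic and 815 to 1236 TPM in control libraries; Pdgfrb, a defining pericyte gene, was listed at 0 in every library. Of these markers 0 passed limma's threshold, and 18 meningeal, 11 endothelial and 5 pericyte genes had an unadjusted p under 0.05, against 11.0% of all genes tested.

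The estimated log2 difference of Fgfbp1 was lower than that of any of these markers. The lowest log2 differences were -2.10 for the meningeal marker Col3a1, -1.60 for the endothelial marker Vwf and -1.44 for the smooth muscle marker Acta2, against -2.23 for Fgfbp1. The SE was 0.46 for Col3a1 and 0.21 for Fgfbp1, and the gap between these 2 genes is small beside it. Set against the mean log2 value of the 20 meningeal markers in the same library, Fgfbp1 stood at -1.48, -1.90 and -1.67 in obesogenic libraries 1, 2 and 3, and at -0.75, -0.99 and -0.42 in control libraries 1, 2 and 3. The groups did not overlap, and the difference of the means was -0.96 log2 units (two-sided exact permutation test over libraries, p = 0.1, the smallest that 3 libraries against 3 allow). Against the endothelial markers the difference was -1.48 and against the pericyte markers -1.26, each without overlap and with an exact permutation p of 0.1. Adjusted by Benjamini-Hochberg over the 15 exact tests, the permutation p of each of these comparisons was 0.375. The part of sheath and vessel transcripts in the Fgfbp1 difference was not tested beyond these values. The plot of marker differences sets Fgfbp1, Fgfr1 and Fgfr3 beside the 3 lists.

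**Figure D3:**
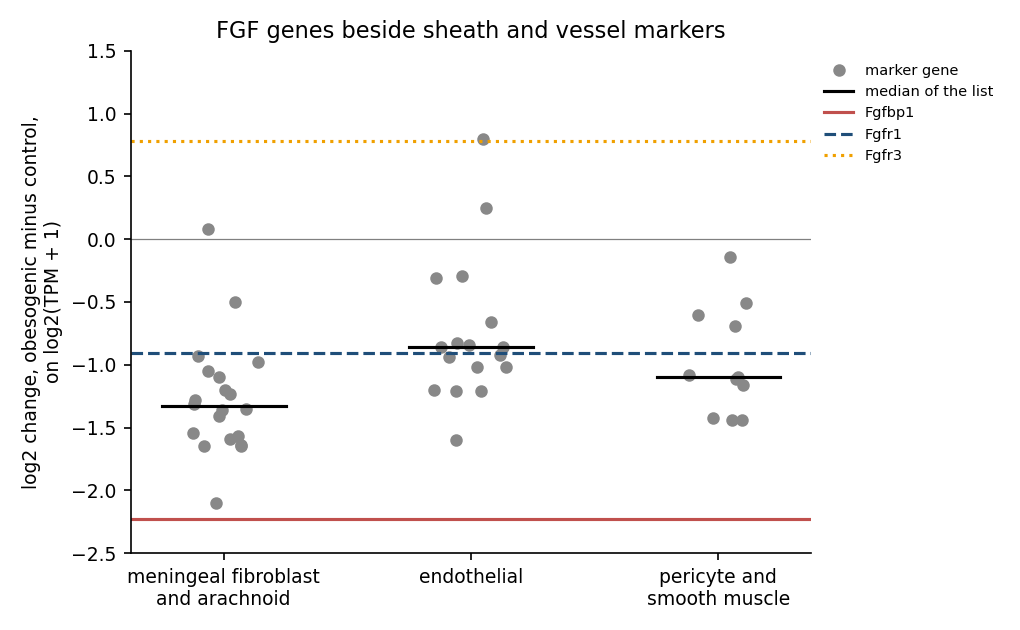
Log2 difference between diets, obesogenic minus control on log2(TPM + 1), of each tested marker of meningeal, endothelial and pericyte or smooth muscle cells (grey points; black bars are list medians), with the values of Fgfbp1, Fgfr1 and Fgfr3 as lines. Fgfbp1 at -2.23 lies below every marker, the lowest being Col3a1 at -2.10, and Fgfr1 at -0.91 lies within all 3 lists.

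The ligands did not pass the test. Fgf1, the acidic FGF that binds every FGF receptor and lacks a signal peptide, measured 21.5, 9.15 and 17.1 TPM in obesogenic libraries 1, 2 and 3, against 15.9, 19.4 and 28.2 TPM in control libraries 1, 2 and 3. Obesogenic library 2 was the lowest of the 6, and the groups overlapped. The log2 difference was -0.43 (SE 0.36, limma adjusted p = 0.722), and it was -0.67 without obesogenic library 1, -0.10 without obesogenic library 2, -0.21 without control library 3 and 0.02 with array weights. Fgf1-202 was on average its most abundant listed transcript, at 6.39, 3.73 and 8.94 TPM in obesogenic against 3.53, 8.84 and 10.5 TPM in control libraries. Fgf1-211, a coding transcript, was listed at 0, 2.54 and 3.03 TPM in obesogenic against 6.98, 5.94 and 4.56 TPM in control libraries, without overlap (limma adjusted p = 0.570).

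Fgf2, the basic FGF and a mitogen of glial precursors, was a little lower in every obesogenic library. It measured 10.5, 8.85 and 10.8 TPM in obesogenic libraries 1, 2 and 3, against 11.1, 15.2 and 11.8 TPM in control libraries 1, 2 and 3. The gap between the groups was small, 10.8 against 11.1 TPM, and the log2 difference was -0.30 (SE 0.25, limma adjusted p = 0.711), or -0.18 without control library 2, the highest of the 6. Fgf2-208 carried most of it, at 9.79, 8.26 and 7.67 TPM in obesogenic and 10.6, 10.99 and 10.5 TPM in control libraries, also without overlap.

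Fgf9, a secreted ligand known from neurons and as a glia-activating factor, was near the limit of the filter. Its coding transcript Fgf9-201 was not analysed here, so these sums may be too low and do not show that the gene is low. It was listed at 0.790, 0.183 and 2.86 TPM in obesogenic libraries 1, 2 and 3, against 0.0983, 0.0938 and 1.28 TPM in control libraries 1, 2 and 3. Library 3 was the highest in both diets, and the groups overlapped. Neuron markers were also highest in library 3 of each diet, at 1797 TPM in obesogenic and 309 TPM in control, and their part in the Fgf9 values was not tested.

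Of the receptors, Fgfr1 (ENSMUSG00000031565), a receptor tyrosine kinase of mesenchymal and neural cells, showed the clearest separation between diets. It measured 107, 70.7 and 78.3 TPM in obesogenic libraries 1, 2 and 3, against 153, 169.9 and 152 TPM in control libraries 1, 2 and 3. All obesogenic libraries lay below all control libraries. The means were 85.2 ± 19.0 TPM with the obesogenic diet and 158 ± 10.1 TPM with the control diet (SD, n = 3 each), and the log2 difference was -0.91 (SE 0.20, limma adjusted p = 0.236; unadjusted rank 150 of 14364). Fgfr1 lay inside the spread of the marker lists: 18 of 20 meningeal, 8 of 17 endothelial and 7 of 11 pericyte markers had a more negative log2 difference. Relative to the mean of the meningeal markers it stood at 0.95, 0.24 and 0.81 log2 units in obesogenic and at 0.10, 0.32 and 0.49 in control libraries, with overlap (exact permutation p = 0.3). The Fgfr1 call depended on the fit, with a limma adjusted p of 0.0232 under array weights (-0.63) and 0.0416 when obesogenic libraries 1 and 3 were both left out (-1.15).

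Fgfr2, a receptor known from oligodendrocytes and myelin, measured 171, 107 and 87.0 TPM in obesogenic libraries 1, 2 and 3, against 149, 178 and 165 TPM in control libraries 1, 2 and 3. Obesogenic library 1 lay among the control libraries while the other two lay below them. The log2 difference was -0.48 (SE 0.26, limma adjusted p = 0.556), and it ranged from -0.76 without obesogenic library 1 to -0.27 without obesogenic library 3 and was -0.04 with array weights (adjusted p = 0.892). Among the obesogenic libraries, the 17 oligodendrocyte markers were also highest in library 1, with sums of 56716, 28224.5 and 29161 TPM in obesogenic libraries 1, 2 and 3, against 66628, 63750.4 and 71579.8 TPM in control libraries. All 17 had a lower obesogenic mean, with a median log2 difference of -0.61, and their part in the Fgfr2 values was not tested.

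Fgfr3, a receptor known from astrocytes and oligodendrocyte precursors, was the 1 gene of the 9 tested with a higher obesogenic mean. It measured 118, 26.3 and 116 TPM in obesogenic libraries 1, 2 and 3, against 25.1, 47.6 and 57.5 TPM in control libraries 1, 2 and 3. Obesogenic libraries 1 and 3 were about alike and above all others, and obesogenic library 2 was within the control range. The log2 difference was 0.78 (SE 0.60, limma adjusted p = 0.692). It was 1.48 without obesogenic library 2 (adjusted p = 0.0539), 1.44 with array weights (adjusted p = 0.0287), 0.42 or 0.44 with obesogenic library 1 or 3 removed, and -0.62 with both removed, again from limma. Neuron markers, at 778, 309 and 1797 TPM, were also lowest in obesogenic library 2 among the obesogenic libraries. So were the hypothalamic neuropeptide genes, at 8139, 1364 and 7337 TPM in obesogenic libraries 1, 2 and 3, against 819.7, 423 and 2221 TPM in control libraries, with a median log2 difference of 3.07. Astrocyte markers had a median log2 difference of -0.28, with sums of 8621, 3299.9 and 6002 TPM in obesogenic libraries 1, 2 and 3, against 8827, 8835 and 7199 TPM in control libraries. The 12 oligodendrocyte precursor markers had a median of -0.22, with 9 lower and 3 higher in obesogenic mean. They summed to 2251, 1336 and 1661 TPM in obesogenic libraries 1, 2 and 3, against 2517, 2380 and 2820 TPM in control libraries. The part of these cell types in the Fgfr3 values was not tested.

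The signal of Fgfr3 was spread over many listed transcripts. Fgfr3-209 measured 22.4, 4.16 and 29.5 TPM in obesogenic libraries against 10.5, 9.87 and 10.7 TPM in control libraries. Fgfr3-217 was listed at 24.3, 5.02 and 12.7 TPM in obesogenic libraries and at 0 in all control libraries (limma adjusted p over all transcripts = 0.154). It was the 1 tested FGF transcript with all obesogenic libraries above all control libraries, and it fell under the filter when any obesogenic library was left out. Because it reached the filter through the obesogenic libraries alone, its lack of overlap was fixed by the filter. A value of 0 is the listed estimate and does not show that the transcript was missing.

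The remaining receptors were low. Fgfr4 measured 2.50, 1.17 and 0.324 TPM in obesogenic libraries 1, 2 and 3, against 1.34, 4.01 and 0.474 TPM in control libraries 1, 2 and 3. Its log2 difference was -0.26 (SE 0.57, limma adjusted p = 0.908), and 0.22 without control library 2. Fgfrl1 encodes a receptor that binds FGFs but lacks the tyrosine kinase domain. It measured 14.6, 8.93 and 6.48 TPM in obesogenic libraries 1, 2 and 3, against 18.0, 12.9 and 10.2 TPM in control libraries 1, 2 and 3. The groups of both genes overlapped, and the log2 difference of Fgfrl1 was -0.45 (SE 0.36, limma adjusted p = 0.703). It was -0.73 without obesogenic library 1, -0.20 without obesogenic library 3, -0.24 without control library 1 and -0.01 with array weights.

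The share of each receptor gene in the receptor transcripts was compared over libraries. No share could pass the exact permutation test, as 3 libraries against 3 allow no p below 0.1, so the test cannot decide whether shares differ. Summed over the 5 receptor genes, libraries held 413, 214 and 288 TPM with the obesogenic diet and 346, 413 and 386 TPM with the control diet (exact permutation p = 0.4). Fgfr1 made up 25.8%, 33.1% and 27.2% of that sum in obesogenic libraries 1, 2 and 3, against 44.2%, 41.2% and 39.4% in control libraries 1, 2 and 3. All obesogenic libraries thus had a smaller Fgfr1 share than the control libraries. The difference of the means was -12.9 percentage points (two-sided exact permutation test, p = 0.1, the smallest possible; 0.375 adjusted by Benjamini-Hochberg over 15 exact tests). Fgfr2 made up 41.5%, 49.9% and 30.2% in obesogenic against 43.0%, 43.2% and 42.9% in control libraries, nearly the same in all control libraries and spread widely over obesogenic ones (exact permutation p = 0.7). Fgfr3 made up 28.5%, 12.3% and 40.2% in obesogenic against 7.25%, 11.5% and 14.9% in control libraries (exact permutation p = 0.2). The ratio of Fgfr3 to Fgfr1 was 1.10, 0.372 and 1.48 in obesogenic and 0.164, 0.280 and 0.378 in control libraries, so that Fgfr3 exceeded Fgfr1 in obesogenic libraries 1 and 3 only. Without any single library, the Fgfr1 share difference stayed between -15.1 and -11.5 points.

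**Figure D4:**
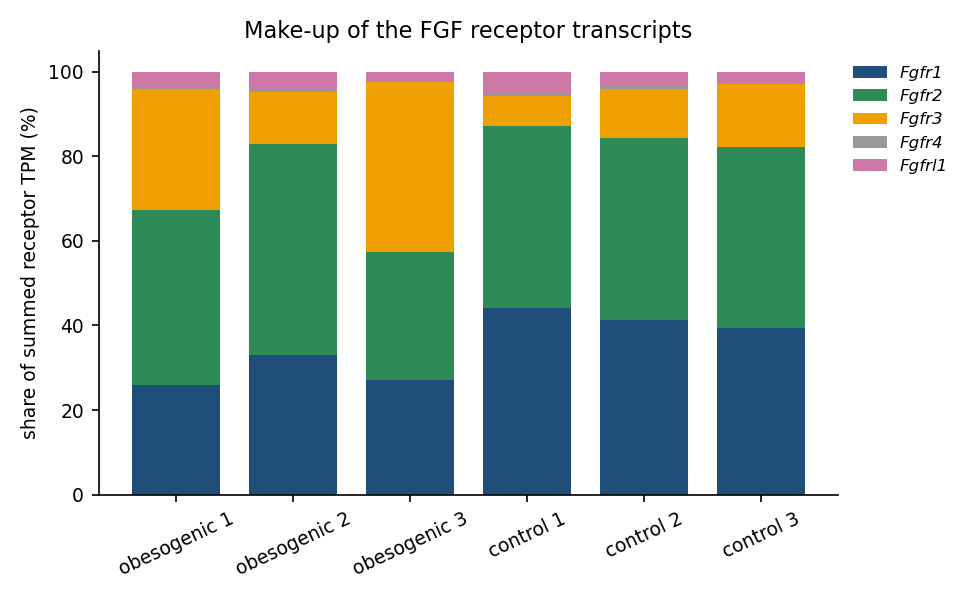
Share of each receptor gene in the summed TPM of the 5 FGF receptor genes, in percent, for each library (obesogenic libraries at the left). Fgfr1 takes 25.8% to 33.1% in obesogenic libraries and 39.4% to 44.2% in control libraries, and Fgfr3 takes 28.5% and 40.2% in obesogenic libraries 1 and 3.

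FGF receptors 1 to 3 exist in forms that differ in the last part of the third immunoglobulin-like domain, which is encoded by either a IIIb or a IIIc exon and sets which FGFs bind. Epithelial cells mainly use IIIb, and mesenchymal and neural cells mainly IIIc. By the GENCODE M21 exons of the listed transcripts, the IIIc form dominated in both diets. Of the TPM of transcripts with 1 of these exons, IIIc made up 97.7%, 98.2% and 99.5% for Fgfr1 in obesogenic libraries, against 97.8%, 98.0% and 97.5% in control libraries. For Fgfr2 the IIIc share was 90.2%, 89.7% and 95.8% in obesogenic against 90.4%, 94.6% and 94.9% in control libraries. For Fgfr3 it was 94.4%, 100% and 97.1% in obesogenic against 94.3%, 96.6% and 97.8% in control libraries. The 100% in obesogenic library 2 rests on 12.7 TPM of IIIc transcripts, beside 13.6 TPM of Fgfr3 transcripts with neither exon. The groups overlapped for each receptor, and no test was run on these shares. Much of the signal was in transcripts counted as having neither exon, which means that no exon had exactly the same start and end. For Fgfr2 this was 37.6 to 59.4 TPM in obesogenic and 52.9 to 73.5 TPM in control libraries. For Fgfr3 it was 13.6 to 48.7 TPM in obesogenic and 6.94 to 15.5 TPM in control libraries. For Fgfr1 it was 5.71 to 17.0 TPM in obesogenic and 25.3 to 37.3 TPM in control libraries.

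The IIIc transcripts also come in longer and shorter forms, the longer one with a 267-base exon that encodes most of the first immunoglobulin-like domain. Fgfr1-202, the longer form, measured 56.0, 39.8 and 49.6 TPM in obesogenic libraries 1, 2 and 3, against 73.8, 83.2 and 65.9 TPM in control libraries 1, 2 and 3 (log2 difference -0.61, SE 0.21, limma adjusted p = 0.495). Fgfr1-203, the shorter form, measured 24.8, 20.1 and 15.7 TPM in obesogenic libraries, against 44.7, 48.99 and 39.4 TPM in control libraries (-1.11, SE 0.24, limma adjusted p = 0.257). Neither overlapped between diets. The longer form was 69.3%, 66.4% and 76.0% of the pair in obesogenic and 62.3%, 62.9% and 62.6% in control libraries, with no obesogenic library as low as a control library. For the corresponding pair of Fgfr2, the longer Fgfr2-215 was 37.9%, 29.3% and 30.8% of the pair with Fgfr2-207 in obesogenic and 28.5%, 39.7% and 35.5% in control libraries, with overlap. Both pairs also differ in coding bases outside the 267-base exon, with coding lengths of 2460 and 2199 bases for Fgfr1 and 2520 and 2169 for Fgfr2. These shares were computed after the transcript values were seen and were not tested.

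**Figure D5:**
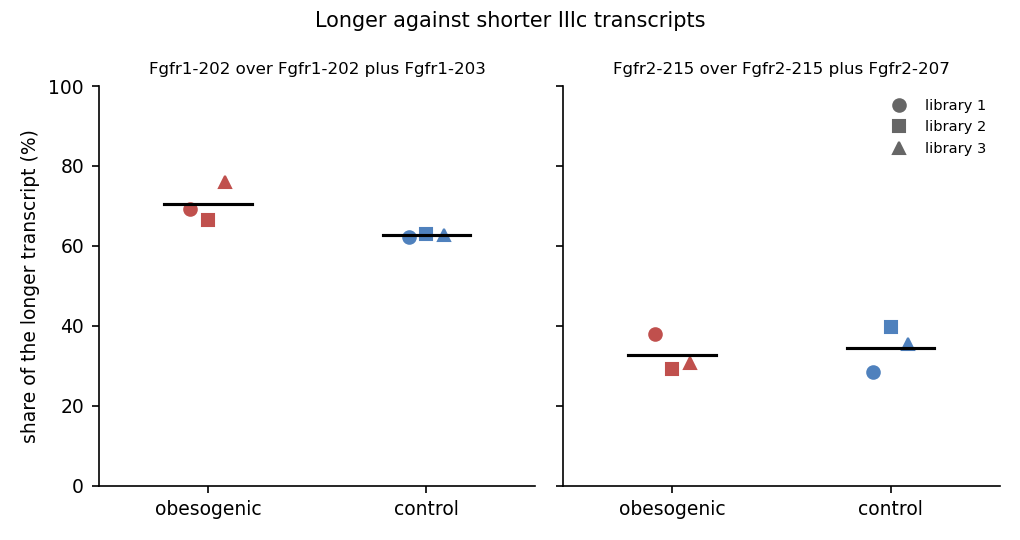
Share of the longer transcript in the sum of the longer and shorter IIIc transcripts, in percent, for Fgfr1 (left) and Fgfr2 (right); points are libraries and bars are group means. For Fgfr1 the obesogenic libraries lie at 66.4% to 76.0%, above the control libraries at 62.3% to 62.9%, and for Fgfr2 the groups overlap.

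Over all transcripts of the 10 genes, 93 were listed, 22 of them at 0 in every library, and 42 reached the filter. By limma 0 of the 42 were called, against a background of 0.00565% of the 35408 transcripts tested, and 8 had an unadjusted p under 0.05, against 8.46%. Of the 42, 9 had all obesogenic libraries below all control libraries, against 6.11% of all transcripts, and 1 had them above, against 7.43%. The 9 were Fgfbp1-201, Fgfbp1-203, Fgf1-211, Fgf2-208, Fgfr1-202, Fgfr1-203 and 3 Fgfr2 transcripts below 6 TPM, namely Fgfr2-208, Fgfr2-220 and Fgfr2-227. Fgfr2-220, and Fgfr3-217 as the one above, reached the filter only through the diet in which they are higher. The filter itself thus fixed their lack of overlap, which is no result about them. Transcripts of 1 gene share reads, so they are not separate results. A further 6 GENCODE M21 transcripts of these genes, among them Fgf1-201, Fgf9-201, Fgfr1-201, Fgfr3-201 and Fgfrl1-201, were not analysed here, and the gene levels may be too low by their part.

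The genes whose pattern was most like that of a member were named by the highest Pearson correlation of log2(TPM + 1) over the 6 libraries. These values describe likeness over libraries that share the diets and the scaling. Picking the highest values among many genes over 6 libraries gives a high r by selection, and no r was tested. For Fgfbp1 they were Wnt6, a Wnt ligand (r = 0.996), Rab30, a small GTPase gene (0.995), and Rnls, which encodes renalase (0.992). Wnt6 measured 43.3, 41.1 and 37.3 TPM in obesogenic libraries 1, 2 and 3, against 141, 122 and 122 TPM in control libraries 1, 2 and 3. For Fgfr1 they were Crabp2, a retinoic acid binding protein gene and one of the meningeal markers (0.993), Asgr1 (0.990) and Cox6b2 (0.989). For Fgfr2 they were Notch1 (0.992), Cpox (0.988) and the myelin gene Mag (0.987), which measured 1278, 783 and 507 TPM in obesogenic against 1044, 1345 and 1193 TPM in control libraries. Coq4, Taf6l and Spats1 were most like Fgfr3 (0.997, 0.996 and 0.995), and Elovl6, a fatty acid elongase gene, was with Chpt1 and Chtf8 most like Fgf1 (0.992, 0.988 and 0.986). Closest to Fgf2 were Tcim, Arl4d and Pir (0.986, 0.980 and 0.974), and among those closest to Fgfbp3 were Naglu and Tmc6 (0.983 and 0.982). For Fgfr4 these were Vps51, Znrd1as and Farp2 (0.985, 0.984 and 0.970), and for Fgfrl1 Wdr5b, Phf5a and Afap1l2 (0.985, 0.984 and 0.979).

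Outside the 10 genes, the FGF pathway was followed in 5 lists, and by limma 0 genes of any of them passed. Of 15 other secreted FGF ligands 3 reached the filter, with a median log2 difference of 0.03 against 0.08 over all genes and 0 genes at an unadjusted p under 0.05, against 11.0% of all genes. Fgf22 measured 4.57, 2.53 and 5.55 TPM in obesogenic against 2.86, 3.28 and 2.94 TPM in control libraries, and Fgf18 measured 3.94, 1.67 and 4.76 TPM in obesogenic against 4.36, 1.71 and 3.87 TPM in control libraries. These ligands were thus less abundant than Fgf1 and Fgf2. The 4 intracellular FGF homologs, which bind sodium channels of neurons and not FGF receptors, had a median of 0.98, with 3 of 4 higher in obesogenic mean. Fgf12 measured 25.7, 10.1 and 58.1 TPM in obesogenic libraries 1, 2 and 3, against 13.5, 13.1 and 9.53 TPM in control libraries 1, 2 and 3. Fgf14 measured 8.54, 1.37 and 16.9 TPM in obesogenic against 2.95, 1.94 and 3.76 TPM in control libraries, and Fgf13 measured 7.48, 0.747 and 18.4 TPM in obesogenic against 4.09, 0.593 and 2.88 TPM in control libraries. In each of these 3, obesogenic libraries 1 and 3 were the highest, as for the neuron markers and the hypothalamic neuropeptide genes, whose part was not tested.

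Of 30 coreceptor and heparan sulfate genes 27 were tested, with a median of 0.03, 14 higher and 13 lower in obesogenic mean, and 3 at an unadjusted p under 0.05, against 11.0% of all genes. Kl encodes alpha-klotho, the coreceptor of the hormone FGF23. It measured 9.29, 8.59 and 9.04 TPM in obesogenic libraries 1, 2 and 3, against 23.8, 25.4 and 17.2 TPM in control libraries 1, 2 and 3, without overlap (log2 difference -1.19, SE 0.24, limma adjusted p = 0.218). Relative to the meningeal markers Kl stood at -2.44, -2.66 and -2.17 log2 units in obesogenic and -2.53, -2.37 and -2.59 in control libraries, with overlap (exact permutation p = 0.7). Sdc3, a heparan sulfate proteoglycan of neural cells, measured 197, 165 and 182 TPM in obesogenic against 75.9, 136 and 101 TPM in control libraries, higher without overlap (0.83, SE 0.24, limma adjusted p = 0.322). Hspg2, the basement membrane proteoglycan perlecan, measured 1.01, 1.94 and 1.42 TPM in obesogenic against 4.73, 3.82 and 2.71 TPM in control libraries, lower without overlap (limma adjusted p = 0.403). Cdh2, the neural cadherin that binds FGFR1, measured 37.0, 17.0 and 29.9 TPM in obesogenic against 17.0, 18.7 and 17.3 TPM in control libraries. Without obesogenic library 2, 5 genes of the lists passed, namely Gpc5, Frs3, Kl, Fgf14 and Cdh2, with limma adjusted p from 0.0279 to 0.0496. The same fit called 860 genes over all genes, so such calls were not particular to these lists. Gpc5 and Frs3 were named after their values were seen.

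All 21 receptor adaptors and transducers were tested, with a median log2 difference of 0.18, 15 higher and 6 lower in obesogenic mean, and 2 at an unadjusted p under 0.05, against the same 11.0%. Shc1, an adaptor that links receptors to RAS, measured 59.9, 69.4 and 36.8 TPM in obesogenic against 94.7, 102 and 78.1 TPM in control libraries, lower without overlap (limma adjusted p = 0.399). Its neuronal relative Shc3 was higher without overlap, at 13.01, 10.01 and 17.1 TPM in obesogenic against 4.18, 8.99 and 7.61 TPM in control libraries (limma adjusted p = 0.436). The docking protein gene Gab1 overlapped between diets, with a log2 difference of -0.42.

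Of 19 feedback and target genes of FGF signalling 18 were tested, with a median of 0.08, equal to that of all genes, and 1 had an unadjusted p under 0.05, against 11.0% of all genes. That gene was Phlda1, which is induced by MAPK activity, at 51.2, 37.6 and 34.1 TPM in obesogenic against 83.9, 69.8 and 67.4 TPM in control libraries, without overlap (log2 difference -0.85, SE 0.21, limma adjusted p = 0.269). The transcription factor gene Etv1 overlapped, at 59.4, 38.8 and 42.8 TPM in obesogenic against 55.3, 78.3 and 67.9 TPM in control libraries. The immediate early gene Egr1 was slightly higher without overlap, at 24.6, 21.7 and 23.8 TPM in obesogenic against 20.9, 17.5 and 15.8 TPM in control libraries (limma adjusted p = 0.583). Il17rd, a feedback inhibitor of FGF receptors, measured 2.81, 1.81 and 0.937 TPM in obesogenic against 1.65, 3.64 and 3.58 TPM in control libraries, with overlap.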

How the data were processed

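Poly(A) RNA of 6 optic nerve libraries was taken with a NucleoSpin RNA Plus XS kit and made into libraries by SMART-Seq, per the labels' protocols. The authors deposited 1 table of TPM values per transcript, which divides reads by transcript length and scales each library to 1000000; STAR 2.7.9a, featureCounts 2.0.3, Subread and DRAGEN stand in the submitters' processing notes with no role given. Neither those notes nor the labels name the build, the annotation or the tool behind TPM (not given in the sources used here). TPM keeps no depth, so no counting intervals were computed.

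Lines repeated for 415 transcripts held the same values and were used once, and transcripts were summed to 35850 genes. Of these, 14364 reached 1 TPM in 3 or more libraries and were tested as log2(TPM + 1), obesogenic minus control, with limma 3.58.1 in R 4.3.3 (lmFit, eBayes with trend, two-sided), and p-values were adjusted by Benjamini-Hochberg over all genes, with a threshold of 0.05. Differences on this scale understate the change of low genes. Transcripts were tested likewise (35408). Receptor shares and levels relative to markers were compared with two-sided exact permutation tests over libraries, 15 in all; with 3 against 3 no p can be below 0.1, and the smallest p adjusted over the 15 by Benjamini-Hochberg was 0.375. Groups come from the sample titles. The fit was checked on simulated data with known changes.

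Members, gene lists and tests were chosen with earlier results of these data known. The text names all members, the tested transcripts its results turn on, up to 4 genes of each pathway list by smallest unadjusted p at a mean of at least 2 TPM, and the genes most like each member over the libraries at a mean of at least 5 TPM; gene models without established symbols, pseudogenes and immunoglobulin segments were not named as most like a member. Of 109383 transcript identifiers, 108145 were in GENCODE M21 (GRCm38), which gave exon content for 92 of the 93 member transcripts. Some genes and sequences that these rules select are not reported here. Start regions came from the RefSeq table for GRCm38.p6, and letters were searched in Python 3.11.15. Figures were drawn with matplotlib 3.10.9. Alternatives covered the pseudocount, the filter, scaling between libraries, array weights, eBayes without trend, the sample number as a block, the most abundant transcript and the removal of each library; leaving out obesogenic libraries 1 and 3 together was chosen after seeing the data.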

Additional observations from a re-analysis of the deposited data

How the results depend on the processing

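The log2 differences of the 9 tested FGF genes were recomputed under all alternatives; 147 values had the same sign and call, 6 gained a call and 8 changed sign. Over all genes, 1 gene was called as reported, 0 without a filter on low values, 2064 with array weights, 350 without obesogenic libraries 1 and 3, a fit that takes its spread from control libraries alone and assumes the single obesogenic library varies alike, and 0 to 860 when 1 library was left out, the 860 without obesogenic library 2. Of the FGF genes 0 were called as reported, 3 with array weights (Fgfbp1, Fgfr1, Fgfr3), 2 with obesogenic library 2 alone (Fgfbp1, Fgfr1) and 0 to 1 when 1 library was left out, the 1 being Fgfbp1 without obesogenic library 2. Of the pathway genes 0 to 5 were called when 1 library was left out, the 5 without obesogenic library 2. Fgfbp3 turned to 1.06 with the most abundant transcript, 0.03 without obesogenic library 3 and 0.16 with obesogenic library 2 alone. Fgf1 turned to 0.02 with array weights, Fgfr3 to -0.62 with obesogenic library 2 alone, Fgfr4 to 0.21 with array weights and Fgf18 to -0.03 with trimmed-mean scaling. When 1 library was left out, Fgfbp3 ranged from -0.41 to 0.03, Fgfr4 from -0.67 to 0.22, Fgf18 from -0.27 to 0.37, Fgfbp3-202 from -0.33 to 1.77, Fgf1-202 from -0.60 to 0.10, Fgfr3-209 from -0.05 to 1.23 and Fgfr3-215 from -0.06 to 1.31. Receptor share differences then ranged from -7.14 to 2.69 percentage points for Fgfr2, from -0.258 to 0.167 for Fgfr4 and from -0.839 to 0.444 for Fgfrl1. The cause of these changes was not tested. Quantile normalization moved the median of all genes by -0.11 on the log2 scale, and Fgfbp1 was then at -2.33 and Fgfr1 at -0.93. Deviations of same-numbered libraries from their diet means correlated at 0.00787, 0.177 and 0.132 over 14364 genes. For obesogenic libraries 2 and 3 these were the highest values with any control library. Library 1 of the obesogenic diet correlated more with library 3 of the control diet (0.107). Deviations within a diet sum to 0, so these values cannot settle whether the sample numbers pair the libraries. With the number as a replicate block, 1 gene was called over all genes, 0 FGF genes were called and the limma adjusted p of Fgfbp1 was 0.139. Depth is unknown, so how far it limits the low values of Fgf9 and Fgfr4 cannot be told, and Fgf9 was summed without Fgf9-201.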
